A study of Bos taurus with 6 samples.

Results

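The growth hormone and insulin-like growth factor axis was represented by 10 listed genes, GHR, IGF1, IGF2, IGF1R, INSR, IGF2R, IRS1, IGFBP3, IGFBP4 and IGFBP5. Members were all non-control probe sets of the array whose annotation gives exactly 1 symbol equal to a listed gene. These were 32 probe sets of 9 genes, among 24016 tested probe sets, of which 13292 carry 1 of 9155 gene symbols. No probe set is annotated to IRS1 alone, so this adaptor was not measured here. GHR has 11 probe sets, INSR 5, IGF1 and IGF2 4 each, IGF1R, IGF2R and IGFBP3 2 each, and IGFBP4 and IGFBP5 1 each. Platform names carry A1, S1 or S2, and the strand that each reads is not given in the sources used here. Whether probe sets of 1 gene read the same transcript is thus not known. Probe sets of a gene are lettered here from the highest mean value down (GHR-A to GHR-K, for example), and the plot of differences pairs each letter with the platform's probe set name.

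Growth hormone from the pituitary binds its receptor GHR and, through the kinase JAK2 and the factor STAT5, raises transcription of IGF1 in liver and other tissues. IGF1 and IGF2 act on muscle through the tyrosine kinase IGF1R, and IGF2 also through INSR, while IGF2R takes IGF2 up for breakdown. Binding proteins of the IGFBP family carry the ligands and limit or prolong their action, and the axis is known for its part in the growth of skeletal muscle in cattle.

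Muscle of the longissimus thoracis, along the back, was taken from 6 castrated male cattle of the Japanese Black breed, with 1 expression array per steer. The vitamin A restricted group comprised 3 steers aged 589, 595 and 611 days (598.3 ± 11.4, SD), and the supplemented group 3 steers aged 600, 612 and 618 days (610.0 ± 9.17, SD). In each diet, replicates 1 to 3 stand in order of rising age. Replicate number and age order within a diet thus cannot be told apart. All steers entered at 13 to 14 months of age. They were fattened for 7 months on feed planned for a daily gain of 1.0 kg. Restricted steers received no vitamin A supplement, and supplemented steers an oral weekly dose of 296.8 IU per kg of body weight. The comparison asks how withholding vitamin A during fattening is reflected in muscle RNA. RNA came from whole muscle, in which fewer cells of a type and less RNA per cell cannot be told apart.

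The deposited values lie on a log scale, taken as log2, and ran from 4.8073 to 12.6731 over the tested probe sets. A given probe set was almost equal on all arrays: the highest and the lowest array lay a median of 0.677 millionths of a log2 unit apart (1 millionth is 1e-06 log2 units). The step that produced this is not given in the sources used here, so no difference is read as a fold change. Differences are restricted minus supplemented, in millionths of a log2 unit or in within-group SDs of the same probe set. Medians of the 6 arrays spanned 8.88 millionths, which exceeds the full range of 28 of the 32 member probe sets and of 85.9% of all tested ones. Muscle fibre markers had 19 probe sets for the 9 measured of 12 listed genes, of which 13 lay above the median of all tested probe sets, 5.1447. The probe set of highest mean of each of these 9 genes lay between 9.71 and 12.67. Of the member probe sets, 12 lay above that median and 20 below it. Probes differ in affinity, so these positions do not rank transcripts.

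None of the 32 probe sets changed past the threshold between the diets (limma with Benjamini-Hochberg adjustment over all 24016 probe sets, adjusted p = 1 for each member). At an unadjusted p under 0.05, 2 members were higher and 0 lower, 6.25% of the members, where 4.08% of all tested probe sets met that p. Past the adjusted threshold lay 0.00416% of tested probe sets, a single one, that of the retinaldehyde reductase DHRS3, with a difference of -437.1 millionths. When age entered the fit its limma adjusted p was 0.0617 at a difference of -435.5, and with the replicate number as a block 0.521 at -437.1. The groups did not overlap in 4 member probe sets. The restricted steers lay above the supplemented ones in 3 of them, 9.38% of the members against 4.12% of all tested, and below in 1, 3.12% against 4.64%. Member differences were positive in 17 probe sets and negative in 15, with a median of 0.0784 within-group SDs, against -0.0322 over all tested probe sets.

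**Figure D1:**
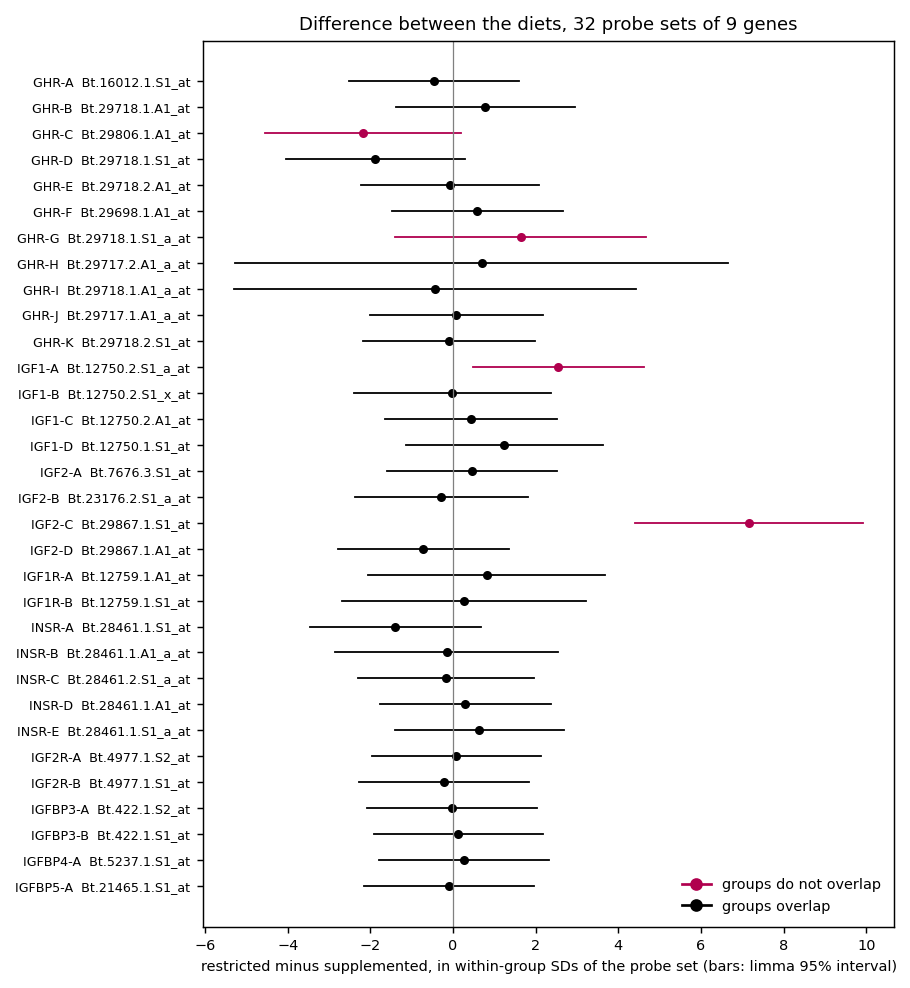
Difference between restricted and supplemented steers for each of the 32 probe sets (rows, with letter and probe set name), in within-group SDs of that probe set, with limma's 95% interval as bars. IGF1-A and IGF2-C stand to the right of 0 without overlap of the groups and the other 2 without overlap belong to GHR and run opposite ways; aligning the array medians takes 2.22 millionths from every probe set, which exceeds each of the 17 positive differences in millionths and leaves 6.96% of all tested probe sets positive.

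GHR, the receptor through which growth hormone acts, is covered by the most probe sets. GHR-A had values of 6.113192, 6.113197 and 6.112893 in restricted steers, against 6.113236, 6.113408 and 6.112927 in supplemented steers. The third replicate, the oldest steer, was the lowest of each diet, and the groups overlapped. Across the diets the lowest steer was aged 611 days and the highest 612 days. The difference was -96.6 millionths, with a limma 95% interval from -532 to 338 and an unadjusted p of 0.583. Without supplemented steer 2 it was 12.4 and without restricted steer 3 it was 3.82, so its sign rested on single steers. With age as a covariate the GHR-A difference was -258.7. Its range of 515.1 millionths over the arrays was wider than that of 98.7% of tested probe sets, and the next widest member range was 12.2.

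The remaining 10 GHR probe sets ranged over at most 0.676 millionths. In GHR-C the restricted steers deviated from the probe set's mean over all steers by -0.0532, -0.0332 and -0.0922 millionths, against 0.0918, 0.109 and -0.0222 in the supplemented steers. All restricted values were thus under all supplemented ones, by a difference of -0.119 millionths or -2.18 SDs (limma unadjusted p = 0.0642). In GHR-G the order was the opposite, restricted steers being higher by 0.0477 millionths or 1.64 SDs without overlap (limma unadjusted p = 0.217); this turned to -2.18 millionths after median alignment. Probe sets of GHR did not run together over the steers: of 55 pairs, 33 correlated positively, and Pearson's r ran from -0.653 to 0.933. Its highest r linked GHR-A with GHR-E (r = 0.933, Spearman's rho = 0.829, over 6 arrays). In all, 5 GHR probe sets had positive and 6 negative differences.

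IGF1, the ligand induced by growth hormone and a stimulus of muscle protein accretion, was read by 4 probe sets. IGF1-A had values of 5.4745987, 5.4745986 and 5.4745991 in restricted steers, against 5.4745984, 5.4745981 and 5.4745980 in supplemented steers. Every restricted steer was above every supplemented one, restricted steer 3 by the most. The difference was 0.596 millionths (95% interval 0.110 to 1.08) or 2.54 SDs, with a limma unadjusted p of 0.0261 and an adjusted p of 1. It was -1.63 millionths after alignment of the array medians, which takes 2.22 millionths from the difference of every probe set. Quantile normalization gave 132.2 millionths (limma unadjusted p = 0.339). Leaving out any single steer gave differences from 0.444 to 0.705. The limma unadjusted p missed 0.05 with age as a covariate (0.0673), with the replicate block (0.085) and without restricted steer 1 (0.0523), supplemented steer 2 (0.0779) or supplemented steer 3 (0.0798).

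The other IGF1 probe sets overlapped between the diets. IGF1-D differed by 0.0657 millionths or 1.24 SDs, IGF1-C by 0.0890 or 0.441 SDs and IGF1-B by -0.00100 or -0.0184 SDs. After alignment of the array medians IGF1-D and IGF1-C turned to -2.16 and -2.135 millionths. The name of IGF1-B carries a suffix of x, which in this array type marks probes that may also bind other transcripts, and that of IGF1-A a suffix of a, for probe sets shared by transcripts of 1 gene. All 6 pairs of IGF1 probe sets correlated positively over the 6 arrays, with r from 0.177 to 0.852.

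IGF2, the ligand known for its imprinting and its part in fetal and muscle growth, gave the member probe set with the smallest p. IGF2-C had values of 5.037168424, 5.037168389 and 5.037168329 in restricted steers, against 5.037168130, 5.037168141 and 5.037168115 in supplemented steers. The gap between the groups, 0.188 millionths, took up 60.8% of its range. Restricted steers were higher by 0.252 millionths (95% interval 0.155 to 0.349) or 7.16 SDs. Its limma unadjusted p of 0.00150 ranked 23 of 24016, and its adjusted p was 1. Leaving out any 1 steer gave 0.230 to 0.278 millionths, age as a covariate 0.220, and alignment of the medians -1.97 (limma unadjusted p = 0.452). Quantile normalization left no difference between the diets in IGF2-C. The mean of IGF2-C, 5.0372, lay below the median of all tested probe sets.

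The other 3 IGF2 probe sets did not show that separation. IGF2-A, with the highest mean of the 4, deviated from its mean by 0.262, 0.456 and -0.291 millionths in restricted steers, against -0.373, 0.727 and -0.780 in supplemented steers. The supplemented group held both its highest and its lowest steer. Its difference was 0.284 millionths (95% interval -0.981 to 1.55), and -1.94 after median alignment. IGF2-B differed by -0.0470 and IGF2-D by -0.265 millionths. IGF2-D (A1) and IGF2-C (S1) share the stem of their platform names, and their r over the 6 arrays was -0.418.

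**Figure D2:**
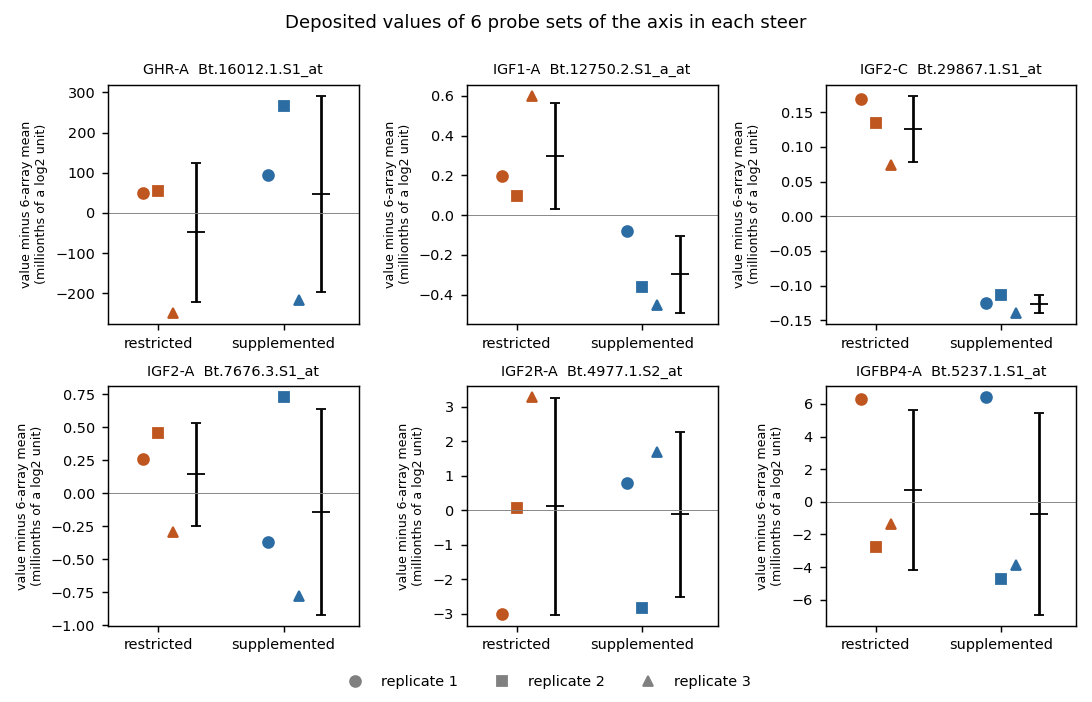
Deposited values of 6 member probe sets in each steer, as the value minus the probe set's mean over the 6 arrays (y axis, millionths of a log2 unit, a scale of its own in each panel); symbols are steers, and the bar beside them is the group mean ± SD (n = 3). IGF1-A and IGF2-C separate the diets as deposited, with differences of 0.596 and 0.252. Median alignment takes 2.22 millionths from every probe set, which by construction turns these to -1.63 and -1.97. GHR-A is lowest in the third replicate, the oldest steer, of each diet, and IGFBP4 is highest in the first, the youngest. Neither follows age over all 6 steers. GHR-A is lowest at 611 days and highest at 612, and IGFBP4 is higher at 600 days than at 595.

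The receptors of the ligands showed no separation of the diets in any probe set. For IGF1R, the main signalling receptor, IGF1R-A differed by 0.0263 millionths (95% interval -0.0666 to 0.119) and IGF1R-B by 0.00800, and these turned to -2.20 and -2.22 after median alignment. Restricted steer 1 was highest in both. In IGF1R-B it stood 0.0457 and supplemented steer 1 0.0237 millionths above the mean, and the other 4 arrays between -0.0183 and -0.0163.

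INSR, the insulin receptor, had 2 positive and 3 negative differences. INSR-A deviated from its mean by -0.0517, -0.838 and 0.0143 millionths in restricted steers, against 0.487, 0.504 and -0.117 in supplemented steers. It was lower in restricted steers by value, -0.583 millionths or -1.39 SDs (limma unadjusted p = 0.138), and supplemented steer 3 lay within the restricted range. INSR-E had the widest INSR range, 4.02 millionths, with restricted steer 1 lowest at -1.99 and restricted steers 2 and 3 highest at 1.501 and 2.03. Its SD was 2.18 millionths in restricted and 0.589 in supplemented steers (n = 3 each), and its difference was 1.02 (95% interval -2.26 to 4.31), or -1.20 after median alignment. It was 2.27 without restricted steer 1 (limma unadjusted p = 0.0101, adjusted p = 1) and 0.266 without restricted steer 3.

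IGF2R, which clears IGF2 from the cell surface and also carries lysosomal enzymes, had differences near 0 in both probe sets. IGF2R-A deviated by -3.00, 0.0782 and 3.27 millionths in restricted steers, against 0.794, -2.83 and 1.69 in supplemented steers. Restricted steers thus spanned the whole range. The difference was 0.228 millionths (95% interval -5.50 to 5.96), or -1.996 after median alignment, and that of IGF2R-B was -0.229 (95% interval -2.34 to 1.88). The 2 probe sets ran together over the steers, with r = 0.739 and rho = 0.714 over 6 arrays.

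The binding proteins varied more between steers than between diets. IGFBP3 is the main carrier of IGFs in plasma and is known from human cells as a gene that retinoic acid can induce. IGFBP3-B deviated by 2.19, -6.68 and 5.48 millionths in restricted steers, against 2.79, 0.187 and -3.97 in supplemented steers. Restricted steers again held both extremes. Its difference was 0.662 millionths (95% interval -9.73 to 11.1), or -1.56 after median alignment. IGFBP3-A differed by -0.0303 (95% interval -1.92 to 1.86), and r between the 2 was 0.480.

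IGFBP4, a binding protein that mostly restrains IGF action, deviated by 6.32, -2.74 and -1.38 millionths in restricted steers, against 6.41, -4.74 and -3.86 in supplemented steers. The first replicate of each diet, its youngest steer, stood above the other 4 steers. Across the diets, supplemented steer 1, aged 600 days, stood above restricted steer 2, aged 595 days. The difference was 1.46 millionths (95% interval -9.9995 to 12.9), -0.765 after median alignment and -3.24 with age as a covariate. IGFBP5, the binding protein best known from differentiating muscle cells and bone, deviated by 5.54, -4.32 and -1.78 millionths in restricted steers, against -0.605, 1.07 and 0.101 in supplemented steers. All supplemented values lay inside the restricted range. Its SD was 5.12 in restricted and 0.843 in supplemented steers (n = 3 each), and the difference of the means -0.379 (95% interval -7.92 to 7.16).

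**Figure D3:**
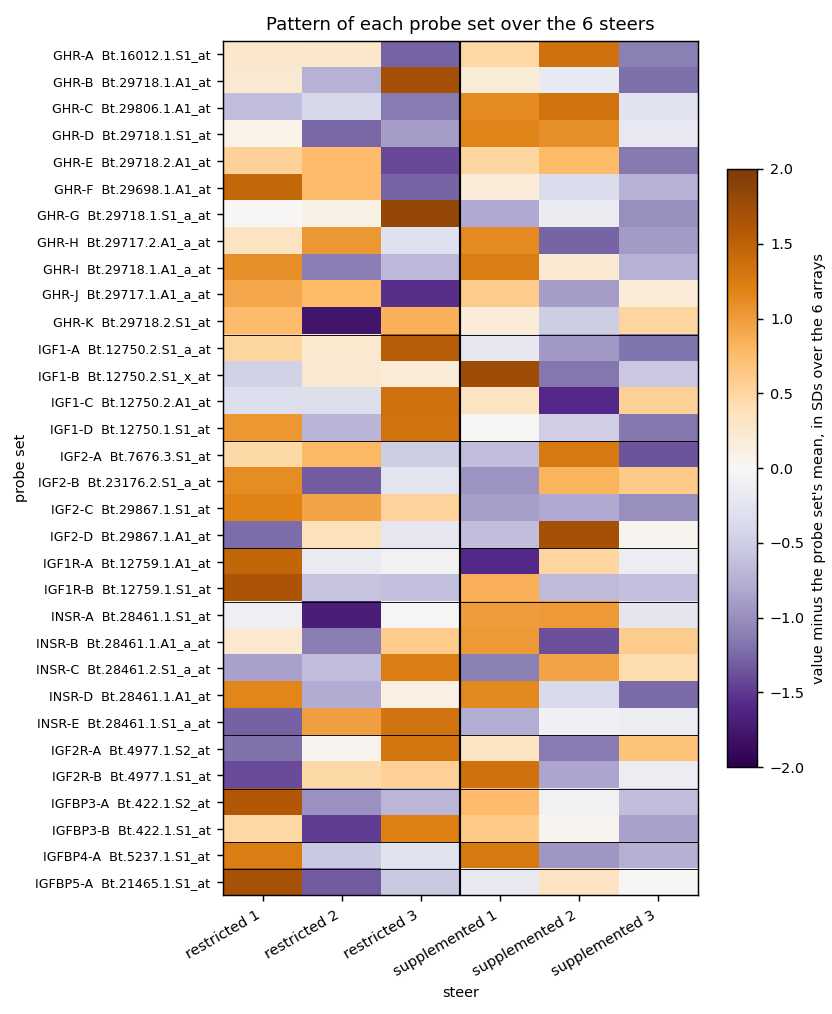
Each of the 32 probe sets (rows) over the 6 steers (columns), coloured by its value minus its mean in SDs over the 6 arrays. Restricted steer 3 was the highest array in 10 member probe sets and restricted steer 1 in 9, restricted steer 2 the lowest in 8 and supplemented steer 3 in 7; rows of 1 gene mostly differ from each other.

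Patterns over the steers were compared between members through the probe set of highest mean of each gene. Of 36 pairs, 22 had a positive Pearson's r, with a median of 0.108. IGFBP3 ran with IGFBP4 (r = 0.850, rho = 0.429) and with IGFBP5 (r = 0.836, rho = 0.829), and restricted steer 1 was highest in IGFBP3 and IGFBP5 and stood at 6.32 millionths in IGFBP4, where supplemented steer 1 was highest at 6.41. GHR ran with IGF2 (r = 0.776, rho = 0.543) and against IGF2R (r = -0.814, rho = -0.600). These values describe the 6 arrays that both probe sets of a pair share. Within genes, 51 of 80 pairs of probe sets correlated positively, with a median r of 0.196.

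Among 7701 probe sets of other genes above the median level, the most like each member by Pearson's r over the 6 arrays was IPO11 for GHR (r = 0.977), RPL5 for IGF1 (0.975), ILK for IGF2 (0.995) and USE1 for IGF1R (0.976). It was GABARAPL1 for INSR (0.980), NEU1 for IGF2R (0.977), PTGDS for IGFBP3 (0.996), PLEKHG1 for IGFBP4 (0.995) and ACAA1 for IGFBP5 (0.996). From 5 such probe sets for INSR to 22 for IGF2 had an r over 0.95, the most like one included. An r over 0.95 was thus not particular to 1 probe set for any member.

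**Figure D4:**
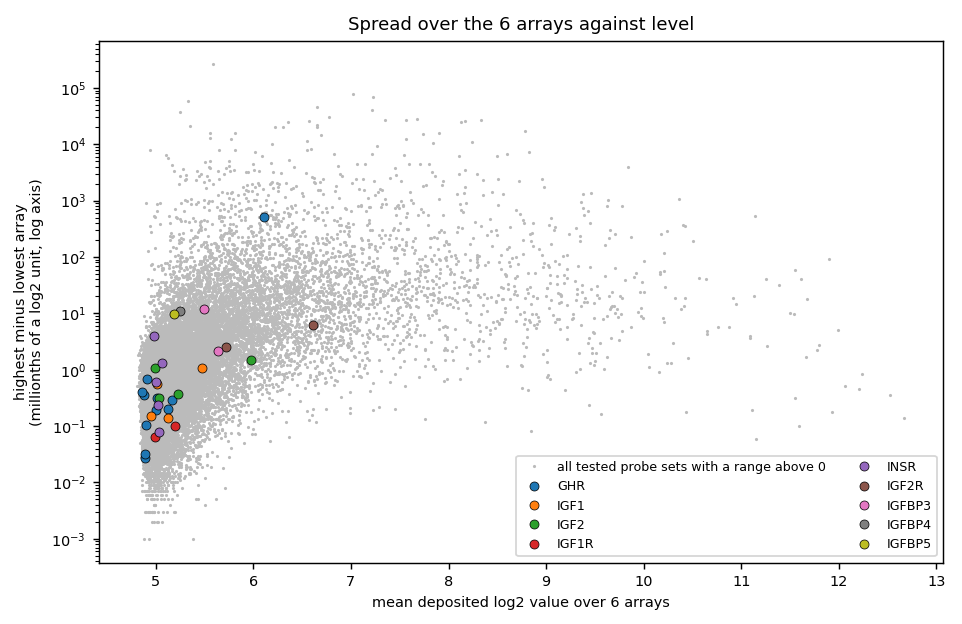
Highest minus lowest array of a probe set (y axis, millionths of a log2 unit, log axis) against its mean deposited log2 value over 6 arrays (x axis), for all tested probe sets with a range above 0 (grey) and the 32 members (coloured by gene). Member ranges ran from 0.0270 to 515.1 millionths, GHR-A being the 1 member among the 3.44% of tested probe sets that ranged over more than 0.0001 log2 units.

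Genes that act below or beside the members were described through 6 lists, of which 74 probe sets of 51 genes were measured from 80 listed genes. None passed the adjusted threshold (limma, 0 higher and 0 lower). At a limma unadjusted p under 0.05, 0 were higher and 1 lower, where 4.08% of all tested probe sets met that p. Differences were positive in 40 (54.1%) and negative in 34, against 48.5% positive over all tested. The groups did not overlap in 3 higher and 2 lower probe sets of the 74, beside 4.12% and 4.64% of all tested. The median difference of the 74 was 0.116 within-group SDs, against -0.0322 over all tested probe sets. In these lists, too, a positive difference under 2.22 millionths turns negative after median alignment.

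The 2 genes named from each list are those of smallest unadjusted p, so their differences do not stand for the list. For signalling below GHR, 6 of 10 probe sets had positive differences. SOCS3, a feedback inhibitor of JAK and STAT signalling, had a value of -0.104 millionths or -1.93 SDs without overlap (limma unadjusted p = 0.0893). The membrane glycoprotein SIRPA had 1.06 millionths or 1.34 SDs. Among other binding proteins and proteases 7 of 11 had positive differences. HTRA1, a secreted serine protease known to cleave IGFBP5, held the 1 probe set of these lists at an unadjusted p under 0.05. Its restricted steers deviated by -85.7, -51.5 and 6.74 millionths, against 34.7, 26.4 and 69.4 in supplemented steers, without overlap. The difference was -87.0 millionths (95% interval -162 to -11.5) or -2.36 SDs, with a limma unadjusted p of 0.0322 and an adjusted p of 1. HTRA1 was lowest in the youngest steers, aged 589 and 595 days, and highest in the oldest, aged 618 days. Between these it did not follow age, with 34.7 at 600 days, 6.74 at 611 and 26.4 at 612. Diet and age are not separated for HTRA1 here. IGFBP2 had a value of 0.125 millionths or 1.75 SDs.

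Of the genes for IGF2 RNA binding and imprinted neighbours, 4 of 7 probe sets had positive differences, INS having a value of -0.0913 millionths and DLK1, an imprinted membrane protein, one of 39.8 (95% interval -106 to 186). Of the receptor adaptors 6 of 7 were positive. GAB1, a docking protein of receptor kinases, had a value of 5.09 millionths or 2.04 SDs without overlap (limma unadjusted p = 0.0507). SHC1, which couples receptors to RAS, had 0.147 millionths or 2.02 SDs without overlap (limma unadjusted p = 0.0672). In the PI3K, AKT and mTOR branch 11 of 25 were positive. AKT2, the AKT form needed for insulin-driven glucose uptake, had a value of 0.0820 millionths or 2.26 SDs without overlap (limma unadjusted p = 0.0844). The ribosomal S6 kinase RPS6KB1 had one of -0.264 or -1.38 SDs. The median of this branch was -0.116 SDs. In the MAPK branch 6 of 14 were positive, with NRAS at -7.80 millionths or -1.31 SDs and SPRY1, an inhibitor of this branch, at 1.85 or 1.29 SDs.

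Markers of muscle fibres, of other cells in muscle and of liver were read beside the IGF1 and IGF2 probe sets that separated the diets. Each gene was read by its probe set of highest mean. All 7 measured of 8 adipocyte markers had positive differences, with a median of 1.16 SDs. CFD was higher by 156.7 millionths or 6.35 SDs without overlap (limma unadjusted p = 0.000717). The groups overlapped in the other adipocyte markers. The difference of LEP, 1.37 millionths, turns negative after median alignment. The summed log2 level of the adipocyte markers ran from 43.019 to 43.048 in restricted and from 43.004 to 43.036 in supplemented steers. Connective tissue markers were higher in 3 and lower in 5 of 8 by value, and their summed level ran from 51.804 to 51.819 in restricted and from 51.790 to 51.844 in supplemented steers. Muscle fibre markers had 3 positive and 6 negative differences, with sums from 102.0377 to 102.0384 in restricted and from 102.0377 to 102.0382 in supplemented steers. Of 3 myogenic cell markers 2 had positive differences, of 5 endothelial markers 4, of 4 macrophage markers 2 and of 5 liver markers 3. The groups were also without overlap in the fast myosin MYH1, lower by value (-3.46 SDs, limma unadjusted p = 0.00836), and in the myogenic factor MYOG, higher by value (2.51 SDs, limma unadjusted p = 0.0265). They were so, too, in the macrophage marker AIF1, lower by value (-1.90 SDs), and the liver marker FGB, higher by value (1.61 SDs). No marker probe set passed the adjusted threshold. Among the markers, too, any positive difference under 2.22 millionths turns negative after median alignment, as for MYOG (1.49) and FGB (0.0933). The part of these cells in the IGF1 and IGF2 values was not tested.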

How the data were processed

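Muscle RNA of 6 steers was measured on a 3 prime expression array, 1 array per steer, from 100 ng of total RNA labelled with biotin, per the labels' protocols. The log2 values are those the authors deposited, 24128 probe sets on 6 arrays. For background correction, normalization, summarization and log base the methods are not stated in these sources. The 112 control probe sets were left out. The other 24016 were multiplied by 1e+09 and went into limma (version 3.58.1, R 4.3.3; lmFit, then eBayes), with restricted minus supplemented as the contrast. Adjustment was by Benjamini-Hochberg over all 24016 at a threshold of 0.05. Beside 4 residual degrees of freedom the variance prior had 0.483. The fit was tested on simulated data. No depth exists for arrays, and their number limits the precision.

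Symbols came from the platform's annotation table, 13292 tested probe sets having 1 gene, 86 several and 10638 none. All 32 member gene identifiers were found in the ARS-UCD2.0 gene table. Neither coordinates nor sequences are printed. Members and lists were chosen with earlier results of these data known. Named are all members, the probe set past the threshold, 2 genes per pathway list by smallest unadjusted p, and the 1 gene most like each member. A correlation is over 6 arrays and is a description. Alternatives were alignment of the array medians (a constant taken from each array), quantile normalization, 2 filters on level, a trend and robust prior, array weights, age, a replicate block and leaving out each steer. Deviations of steers with the same replicate number correlated at 0.0374, 0.0151 and 0.0152, and those with different numbers at -0.0214 to 0.0061. The labels do not say that a replicate number is shared between the diets, so the numbers were not taken as pairs.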

Additional observations from a re-analysis of the deposited data

How the results depend on the processing

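No member or pathway list gene passed the adjusted threshold in the main test or under the alternatives that gave them a value. The filters on level kept 21 and 12 of the 32 members, and quantile normalization left 9 that varied. At an unadjusted p under 0.05 limma gave 0 to 4 members, beside 0.397% to 4.96% of all probe sets tested in those settings. The 4, without restricted steer 1, stood beside 4.11% of all. The 0 after median alignment and quantile normalization stood beside 0.916% and 0.397%. Over all probe sets the 1 call, DHRS3, became 0 when age was a covariate (adjusted p = 0.0617, difference -435.5 millionths) and 0 with the replicate block (0.521, -437.1), at a difference of -437.1 in the main test. The count was 22 with quantile normalization, and 1 to 2 when a single steer was left out (2 without supplemented steer 3). The replicate block changed no member's call. Quantile normalization left 15456 probe sets and 23 of the 32 members equal on all arrays, which were not fitted; 4 further members had equal group means, and the other 5 kept their sign at other sizes, -57.2, 3.24 and -4.17 millionths for GHR-A, GHR-B and GHR-C, 132.2 for IGF1-A and -14.6 for IGFBP5. Alignment of the array medians takes the same offset of 2.22 millionths from every difference, which by construction turns any positive difference below it, here all 17 of the members, and makes 6.96% of all tested probe sets positive, against 48.5% as deposited. In millionths it gave, beside the values in the report (IGF1 -1.63, -2.135 and -2.16, IGF2 -1.94 and -1.97, IGF1R -2.20 and -2.22, INSR-E -1.20, IGF2R -1.996, IGFBP3 -1.56, IGFBP4 -0.765), -2.15, -2.07, -2.18, -2.22 and -2.21 for GHR-B, GHR-F, GHR-G, GHR-H and GHR-J, and -2.14 for INSR-D.

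With age as a covariate 8 members turned, at -0.123, -0.00166, -0.137 and 0.0288 millionths for GHR-F, GHR-H, GHR-J and GHR-K, -0.0194 for IGF1R-B, 0.0974 and -0.116 for INSR-C and INSR-D, and -3.24 for IGFBP4. Age moved others without turning them, to -258.7, -0.0991 and -0.0186 for GHR-A, GHR-E and GHR-I, -0.0251 and 0.188 for IGF1-B and IGF1-C, 0.0462, -0.0192 and -0.0925 for IGF2-A, IGF2-B and IGF2-D, 2.37 for INSR-E, 2.12 for IGF2R-A, -0.779 for IGFBP3-A and -1.77 for IGFBP5. With array weights 3 turned, GHR-J to -0.0146, GHR-K to 0.0110 and INSR-C to 0.000353. The other prior and the block leave the differences of the 32 as they are. So do the filters on level for the 21 and 12 members they kept. By construction, no sign could turn in these settings. The causes were not tested.

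Leaving out each steer in turn turned the sign of 19 members and kept that of 13. In the 4 without overlap no steer left out could turn it. The ranges of those that turned were, in millionths, for GHR, -228 to 12.4 (GHR-A), -0.0595 to 0.0540 (GHR-E), -0.0153 to 0.000500 (GHR-I), -0.0515 to 0.130 (GHR-J) and -0.0878 to 0.117 (GHR-K). They were -0.0293 to 0.0412 and -0.0378 to 0.163 for IGF1-B and IGF1-C, -0.0347 to 0.719 and -0.142 to 0.0400 for IGF2-A and IGF2-B, and -0.0128 to 0.0218 for IGF1R-B. For INSR they were -0.0300 to 0.0113 (INSR-B), -0.0850 to 0.0242 (INSR-C) and -0.0522 to 0.244 (INSR-D). For IGF2R they were -1.35 to 1.79 (IGF2R-A) and -0.676 to 0.360 (IGF2R-B), for IGFBP3 -0.698 to 0.362 (IGFBP3-A) and -1.91 to 4.17 (IGFBP3-B), for IGFBP4 -1.33 to 5.03 and for IGFBP5 -3.24 to 1.69. Among those that kept their sign, the ranges were 0.0138 to 0.133 (GHR-B), 0.0113 to 0.349 (GHR-F), 0.0258 to 0.0593 (GHR-G), 0.00283 to 0.0163 (GHR-H), 0.0423 to 0.103 (IGF1-D), -0.446 to -0.0238 (IGF2-D), 0.00717 to 0.0412 (IGF1R-A), -0.787 to -0.310 (INSR-A) and 0.266 to 2.27 (INSR-E).

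With 3 steers per diet and values that hardly differ between arrays, a p past no threshold does not show that the diets were alike.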
